A study of Rattus norvegicus with 6 samples.

Results

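The 10 genes described here encode the core of mTORC1 amino acid sensing: the kinase and its scaffold (Mtor, Rptor), the TSC brake (Tsc1, Tsc2), the small GTPase that switches the kinase on (Rheb), lysosomal sensing components (Rraga, Flcn, Slc38a9), a stress-induced inhibitor (Ddit4) and a substrate (Eif4ebp1). They were chosen by name, and all 10 were found among the 17051 genes of the files, each with 1 transcript. All 10 also passed the minimum of 30 estimated counts in at least 1 rat, which left 11553 genes to test. Their RNA was measured by sequencing of poly(A)-selected RNA from kidney tissue of 6 male Sprague Dawley rats, 1 library per rat. The 3 rats of the AL group (rats 61, 71 and 88) had a normal diet, standard chow taken at will. The 3 rats of the HD group (rats 64, 67 and 69) had a hyperammonemic diet, in which chow powder was mixed with amino acids in the proportions of hemoglobin. Both diets were given for a week, and surgery under isoflurane anesthesia followed in both groups. Neither group is labelled with a genetic change or a drug. Kidney tissue holds many cell types, so that fewer cells of a type and less RNA per cell cannot be told apart.

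mTORC1 is a protein kinase complex at the lysosome that promotes protein synthesis and growth and restrains autophagy when amino acids and growth factors are plentiful. Amino acids act through the Rag GTPases, which carry the complex to the lysosome, where Rheb activates it, and growth factors act by releasing Rheb from the TSC complex. In the kidney the pathway is known for its part in the growth of the organ. Its activity is set largely by location and phosphorylation, which RNA levels do not measure.

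Estimated counts per library ranged from 12499945 to 30466461, and the 10 genes together held between 5921 and 14952 of them. Kidney markers were present in every rat, with 5 of 5 proximal tubule, 3 of 3 thick ascending limb and 5 of 5 distal and collecting duct genes tested. Summed marker levels also differed between the libraries, and whether the share of any cell type differed was not tested. Of the 5 proximal tubule markers, 1 (Slc34a1) had an unadjusted edgeR P value below 0.05. So did 4 of the 6 podocyte markers, beside 10.6% of all tested genes. The summed proximal tubule markers were at 7411 to 8748 CPM (counts scaled to a common library total, here with TMM factors) in the AL group and at least 9610 CPM in every HD rat. All 3 thick ascending limb markers had log2 fold changes below 0, with Slc12a1 at -0.86 (edgeR unadjusted P = 0.0263) and apart between the groups, while the list's sums overlapped (5318 to 5971 against 3424 to 5653 CPM). The summed level of 6 podocyte markers was 54.9 to 128 CPM in the AL group and 193 to 417 CPM in the HD group. That of 5 leukocyte markers was 26.4 to 78.9 CPM against 16.5 to 28.1 CPM, with Cd3e at 0 in rats 64 and 67. The summed distal and collecting duct markers overlapped, at 930 to 1163 CPM and 1032 to 1736 CPM. Adipocyte markers, 4 of 4 tested, were lowest in rat 64 (24.8 CPM) and highest in rat 67 (266 CPM).

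None of the 10 genes passed the test between the diets. By the quasi-likelihood test of edgeR, adjusted after Benjamini and Hochberg, 0 of the 10 reached the threshold of 0.05, as did 0% of all tested genes. At an unadjusted P value below 0.05 the number was again 0 of 10, whereas 10.6% of all tested genes (1224) were below it. DESeq2, which called 1.58% of all tested genes (182) at the same adjusted threshold, also called 0 of the 10. The fold changes were split evenly, 5 above and 5 below 0, with a median log2 fold change of -0.007 beside 0.0067 over all tested genes. They ran from -0.53 for Ddit4 to 0.49 for Eif4ebp1, the genes with the widest spread between rats. With 3 rats against 3, exact permutation can go no lower than P = 0.1 (two-sided).

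**Figure D1:**
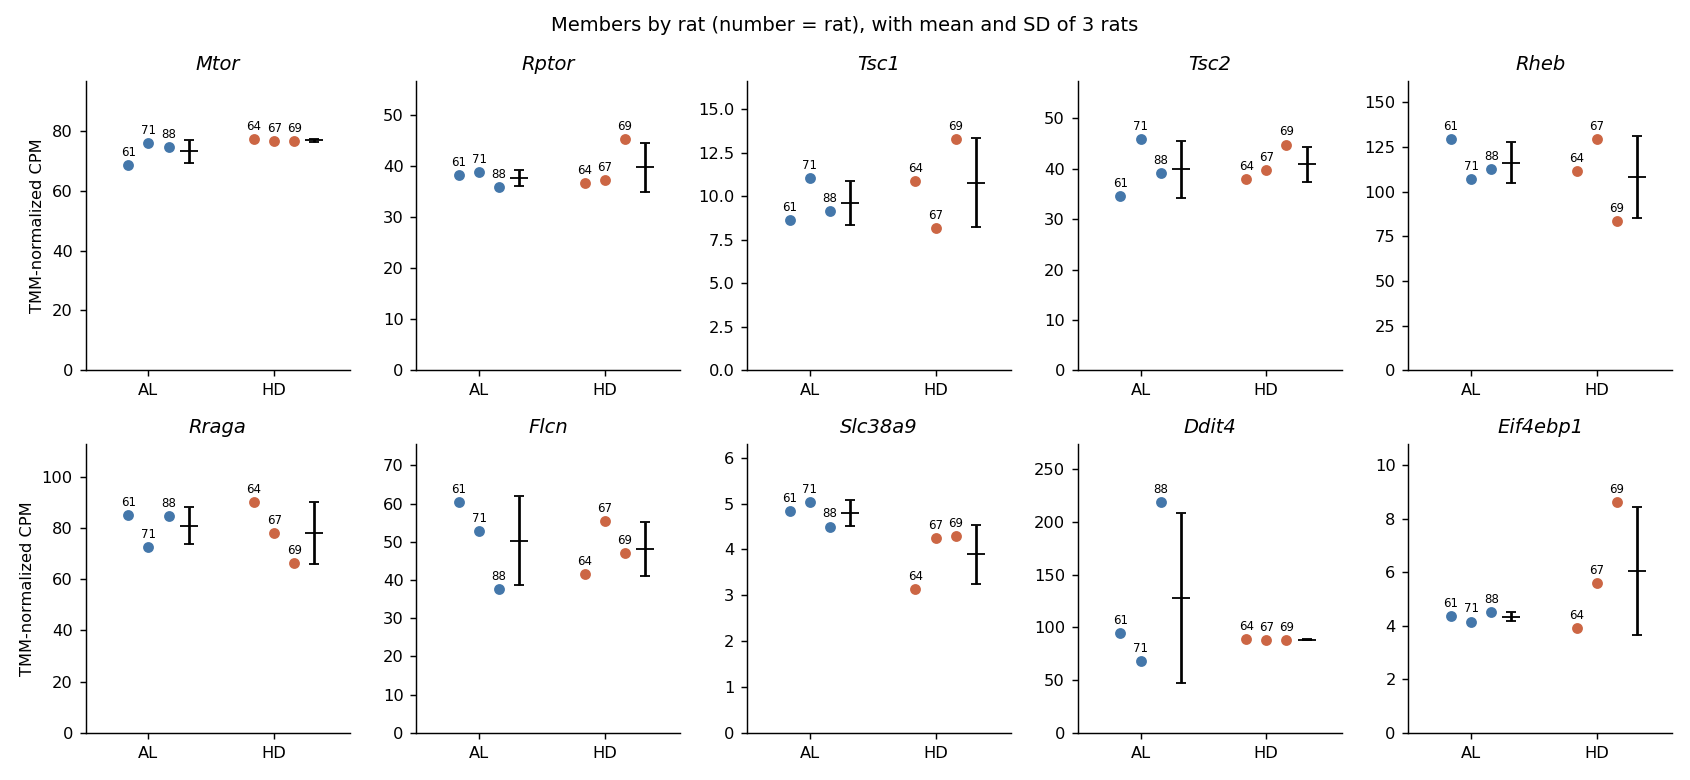
Each panel plots 1 gene, with TMM-normalized CPM on an axis from 0 and the AL (blue) and HD (orange) rats side by side, numbered by rat. The black bar is the mean with the SD of 3 rats. The groups overlap in 8 of the 10 genes, and rat 88 stands apart in Ddit4 with 219 CPM.

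The stretches of DNA at the start of the genes were compared for the features their letters share. RefSeq promoter windows of the GRCr8 build, 250 bases before to 50 bases after the start, were matched by symbol for 7 of the 10 genes (all but Rptor, Rraga and Eif4ebp1). The windows of 3 genes are printed 5′ to 3′. Mtor was the steadiest of the 10 genes in TMM-normalized CPM, and Ddit4 varied most between rats. Slc38a9 had groups that stayed apart on 3 scales. Capitals mark the hypoxia response core ACGTG and the GC box CCGCCC on either strand. The Mtor window is chr5:164167735-164168034 on the plus strand, the Ddit4 window is chr20:28436988-28437287 on the minus strand and the Slc38a9 window is chr2:46035818-46036117 on the plus strand.
Mtor: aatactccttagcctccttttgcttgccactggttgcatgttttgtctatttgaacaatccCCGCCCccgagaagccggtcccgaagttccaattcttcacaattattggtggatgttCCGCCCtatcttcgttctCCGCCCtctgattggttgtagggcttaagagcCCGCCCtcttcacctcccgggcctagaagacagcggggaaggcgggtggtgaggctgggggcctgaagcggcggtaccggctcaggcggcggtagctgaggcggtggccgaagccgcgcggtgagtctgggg
Ddit4: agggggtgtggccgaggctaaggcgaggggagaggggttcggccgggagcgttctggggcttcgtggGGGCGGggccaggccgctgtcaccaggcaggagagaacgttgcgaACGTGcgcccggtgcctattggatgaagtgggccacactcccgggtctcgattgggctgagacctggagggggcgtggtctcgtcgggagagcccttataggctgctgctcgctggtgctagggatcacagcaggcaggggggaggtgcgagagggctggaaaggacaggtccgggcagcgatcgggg
Slc38a9: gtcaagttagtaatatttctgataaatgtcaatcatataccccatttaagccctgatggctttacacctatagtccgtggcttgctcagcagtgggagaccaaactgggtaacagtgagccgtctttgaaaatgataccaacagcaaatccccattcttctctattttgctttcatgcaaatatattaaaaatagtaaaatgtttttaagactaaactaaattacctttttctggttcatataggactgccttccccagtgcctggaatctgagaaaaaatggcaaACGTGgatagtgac

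The Mtor window held 4 GC boxes, at 189, 132, 114 and 82 bases before the start, and no hypoxia core. The Ddit4 window held 1 GC box at 183 bases and 1 hypoxia core at 138 bases before the start. Slc38a9 had the window poorest in G and C (38%, lower than all but 8.33% of the promoters in the table) and a hypoxia core 36 bases after the start. Over the 7 genes, the hypoxia core was found in 4 (19.3% of all 33469 promoters) and the GC box in 4 (33.1%). The E-box CACGTG, which itself contains the hypoxia core and is the kind of site the TFE factors bind, was found in Rheb alone (6.42% of promoters). The glucocorticoid receptor motif TGTTCT was found in Flcn alone (20.7%), the ATF4 site TGATGCAA in none (0.795%) and the box TATAAA in none (14.2%). A match in so short a window is a description of letters and does not show that a factor binds there.

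The kinase subunit Mtor lies on chromosome 5 of the rn5 build, from 168920419 to 169030568, with 58 exons on the plus strand. Its level was 68.7, 76.0 and 74.7 CPM in AL rats 61, 71 and 88, and 77.3, 76.6 and 76.5 CPM in HD rats 64, 67 and 69. The 3 HD rats were almost equal and all lay above the AL rats, rats 67 and 69 by less than 1 CPM over rat 71. HD over AL gave a log2 fold change of 0.07 ± 0.10 (SE; edgeR adjusted P = 0.862; exact permutation test, P = 0.1), with a 95% interval of 0.898 to 1.23 for the fold of HD over AL. The groups overlapped when CPM was scaled by library size alone and also in TPM (RSEM's transcript abundance, scaled to length and library). In TMM-normalized CPM, Mtor was the steadiest of the 10 genes, with 1.13 between its highest and lowest rat as a ratio. On that scale 1.45% of all tested genes had a smaller range over the 6 rats. In TPM Mtor ran from 11.4 to 15.2 and Rraga from 67.9 to 87.1, so that Rraga was steadier as a ratio.

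Rptor encodes Raptor, the scaffold that presents substrates to the kinase (chromosome 10, 108353697 to 108658916, plus strand, 34 exons). It was at 38.4, 38.9 and 35.9 CPM in AL rats 61, 71 and 88, and at 36.8, 37.3 and 45.4 CPM in HD rats 64, 67 and 69. Rat 69 alone lay outside the range of the AL rats, above it. HD over AL gave a log2 fold change of 0.08 ± 0.12 (SE; edgeR adjusted P = 0.880), with a 95% interval of 0.866 to 1.29 for the fold. Per length, the ratio of Rptor to Mtor in TPM was 0.660 ± 0.050 (SD, n = 3) for AL and 0.662 ± 0.083 (SD, n = 3) for HD.

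The TSC complex keeps Rheb in its inactive form. Tsc1, its stabilizing subunit (chromosome 3, 12588006 to 12615637, plus strand, 21 exons), was at 8.66, 11.0 and 9.13 CPM in AL rats 61, 71 and 88. In HD rats 64, 67 and 69 it was at 10.9, 8.19 and 13.3 CPM. The HD group held both the lowest and the highest rat, and the log2 ratio of HD to AL was 0.17 ± 0.23 (SE; edgeR adjusted P = 0.859). Tsc2, the subunit that acts on Rheb (chromosome 10, 13778991 to 13813550, minus strand, 42 exons), was at 34.6, 46.0 and 39.1 CPM in the AL rats and 38.0, 39.8 and 44.8 CPM in the HD rats. All 3 HD rats fell inside the AL range, with a log2 fold change of 0.04 ± 0.14 (SE; edgeR adjusted P = 0.964). The 95% interval of the fold was 0.776 to 1.63 for Tsc1 and 0.819 to 1.28 for Tsc2. In TPM, Tsc2 exceeded Tsc1 in every rat, by a ratio of 2.07 to 2.98.

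Rheb, the GTPase that activates the kinase, lies on chromosome 4 from 6843897 to 6889004 with 8 exons on the plus strand. It was at 129, 107 and 112 CPM in AL rats 61, 71 and 88, and at 111, 130 and 83.8 CPM in HD rats 64, 67 and 69. Rat 69 was the lowest of the 6, while rats 64 and 67 lay within or next to the AL range. The log2 fold change was -0.10 ± 0.17 (SE; edgeR adjusted P = 0.888), with a 95% interval of 0.703 to 1.23 for the fold.

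Rraga encodes RagA, one of the GTPases that bring mTORC1 to the lysosome, and is a gene of 1 exon (chromosome 5, 108928874 to 108930467, plus strand). Its AL levels were 85.1, 72.5 and 84.8 CPM in rats 61, 71 and 88, and its HD levels 90.3, 78.1 and 66.2 CPM in rats 64, 67 and 69. Again the HD rats reached both above and below the AL rats, and the log2 ratio of HD to AL was -0.05 ± 0.14 (SE; edgeR adjusted P = 0.949). Flcn encodes folliculin, which acts on the partner GTPase of RagA and restrains the TFE transcription factors (chromosome 10, 45909610 to 45928697, minus strand, 13 exons). It was at 60.5, 52.9 and 37.5 CPM in the AL rats and at 41.6, 55.6 and 47.1 CPM in the HD rats, all 3 of which fell inside the AL range. Its log2 ratio of HD to AL was -0.06 ± 0.19 (SE; edgeR adjusted P = 0.952). The 95% interval of the fold was 0.768 to 1.22 for Rraga and 0.699 to 1.31 for Flcn.

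Slc38a9, the lysosomal transporter that reports arginine to the Rag GTPases, was the member whose groups stayed apart on the 3 scales compared (TMM, library size alone and TPM), with the HD rats lower (chromosome 2, 63565696 to 63631106, plus strand, 14 exons). It was at 4.84, 5.04 and 4.50 CPM in AL rats 61, 71 and 88 and at 3.14, 4.25 and 4.28 CPM in HD rats 64, 67 and 69. The gap between the groups was narrow, from 4.28 to 4.50 CPM. These levels rest on few reads, between 37 and 134 counts per rat. HD and AL differed by a log2 fold change of -0.29 ± 0.24 (SE; edgeR adjusted P = 0.737; exact permutation test, P = 0.1), and the 95% interval of the fold ran from 0.551 to 1.21. Among the 10 genes, 1 did not overlap with the HD group higher (Mtor) and 1 with it lower (Slc38a9), beside 7.25% and 7.01% of all tested genes.

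Ddit4 encodes REDD1, an inhibitor of mTORC1 that acts through the TSC complex and is induced by glucocorticoids, low oxygen and other stresses (chromosome 20, 31315024 to 31317123, minus strand, 3 exons). It was at 95.1, 68.4 and 219 CPM in AL rats 61, 71 and 88, and at 89.2, 88.5 and 88.0 CPM in HD rats 64, 67 and 69. On this scale the HD rats lay inside the AL range and were nearly equal, with a coefficient of variation of 0.694% against 63.2% in the AL group. In TPM they were less alike, at 77.3, 75.4 and 83.1 in rats 64, 67 and 69, and again inside the AL range (69.3 to 208 TPM). Taken over all rats, the log2 fold change was -0.53 ± 0.39 (SE; edgeR adjusted P = 0.694). Its sign rested on rat 88, since it was 0.12 without that rat (adjusted P = 0.996). Without rat 71 it was -0.83, with an unadjusted P value of 0.0373 and an adjusted P value of 0.638.

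Eif4ebp1 encodes a repressor that holds the cap-binding factor eIF4E and lets it go once mTORC1 has phosphorylated the repressor (chromosome 16, 68580263 to 68593651, minus strand, 3 exons). It was at 4.37, 4.16 and 4.50 CPM in AL rats 61, 71 and 88, with a coefficient of variation of 3.98%. In the HD group it was at 3.90 in rat 64, 5.60 in rat 67 and 8.63 in rat 69, so that rat 64 was the lowest of all and rat 69 the highest. This gave a log2 ratio of HD to AL of 0.49 ± 0.32 (SE; edgeR adjusted P = 0.643), from 46 to 270 counts per rat. It was 0.14 without rat 69 and 0.72 without rat 64 (unadjusted P = 0.0460, adjusted P = 0.889). Rat 69 also had the highest summed smooth muscle and mesangial markers (5 of 5 tested), at 291 CPM against 58.7 and 63.6 CPM in the other HD rats and 68.5 to 162 CPM in the AL group. The podocyte sum (193, 264 and 417 CPM in rats 64, 67 and 69) and that of 5 endothelial markers (74.4, 122 and 243 CPM) had the same order in the HD rats as Eif4ebp1, with AL ranges of 54.9 to 128 and 98.2 to 263 CPM. The library totals of rats 64, 67 and 69 also had the HD order of Eif4ebp1 (12499945, 21086503 and 30466461 counts). The part of these markers or of the totals in the Eif4ebp1 level was not tested.

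**Figure D2:**
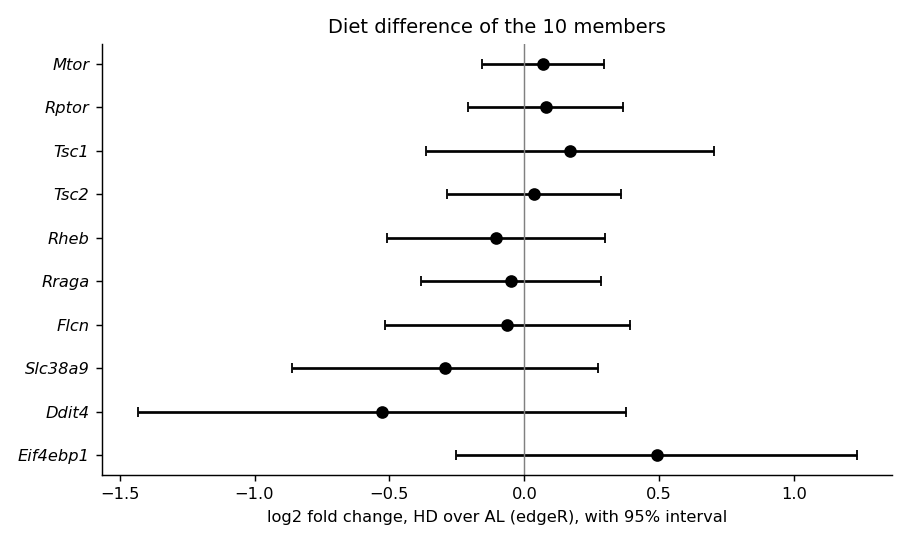
Points are log2 fold changes of HD over AL from edgeR for the 10 genes, and bars are 95% intervals. Every interval includes 0, and the widest belongs to Ddit4, from -1.43 to 0.38.

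Scaled to transcript length, the 10 genes covered more than an order of magnitude. Rheb was highest with 166 ± 19.8 TPM (SD over all 6 rats), followed by Ddit4 with 98.8 ± 53.5 and Rraga with 78.3 ± 7.33 TPM. Flcn stood alone at 25.6 ± 4.34 TPM, with no rat in the range of either neighbor. A group of 4 genes followed whose ranges overlapped from each to the next, namely Mtor (13.5 ± 1.30 TPM), Tsc2 (11.0 ± 1.92), Eif4ebp1 (10.0 ± 3.68) and Rptor (8.89 ± 1.18). Tsc1 (4.54 ± 1.07 TPM) and Slc38a9 (3.84 ± 0.760) were lowest and overlapped each other. The ranges of Rheb and Ddit4 and those of Ddit4 and Rraga overlapped as well, the former because of rat 88. Among all tested genes, the mean TPM of Rheb stood at percentile 91.4, that of Mtor at 44.8 and that of Slc38a9 at 19.5.

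**Figure D3:**
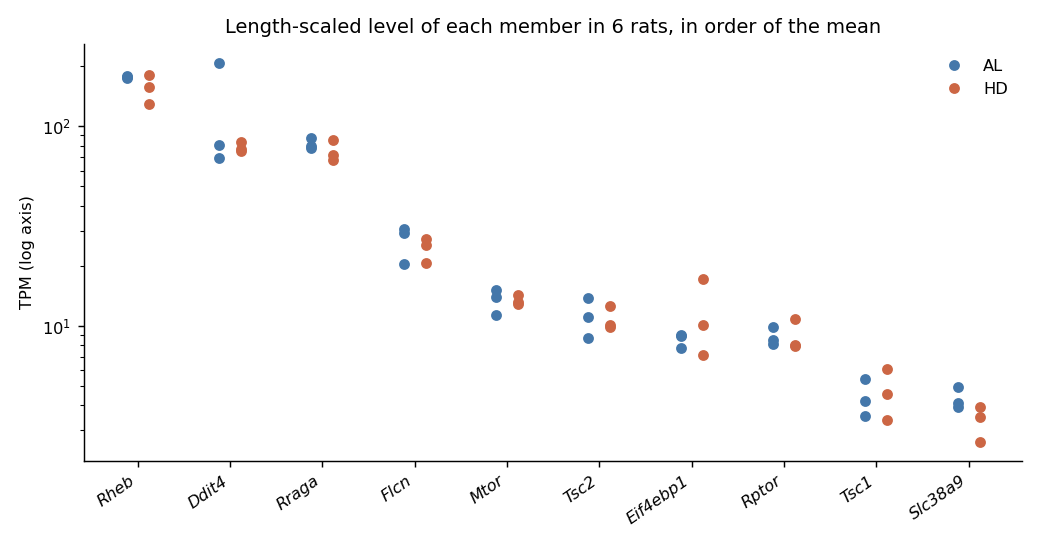
The level of each gene in TPM is plotted on a log axis, 1 point per rat (AL blue, HD orange), in order of the mean over 6 rats. Levels fall from 166 TPM for Rheb to 3.84 TPM for Slc38a9, and AL and HD points mix in most genes.

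The other genes of the pathway were taken as 8 lists by role, and 77 of their genes could be tested. At an unadjusted P value below 0.05, 5 were higher in the HD group (Sesn2, Prr5, Fnip2, Prkaa2 and Eif4ebp2) and 2 were lower (Ulk1 and Pdcd4). These 7 are 9.09% of the 77, beside 4.66% of all tested genes higher and 5.94% lower, so the share called was close to that of all genes. The unadjusted P values of Prkaa2 (0.0549) and Eif4ebp2 (0.0978) were above 0.05 with library size alone, and those of Fnip2 (0.0666), Prkaa2 (0.0620) and Eif4ebp2 (0.0978) with limma on TPM, which left Sesn2 and Prr5 higher and Ulk1 and Pdcd4 lower. After adjustment, edgeR called 0 of the 77 and DESeq2 called 1 (Sesn2). The median log2 fold change of the 77 was 0.06.

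**Figure D4:**
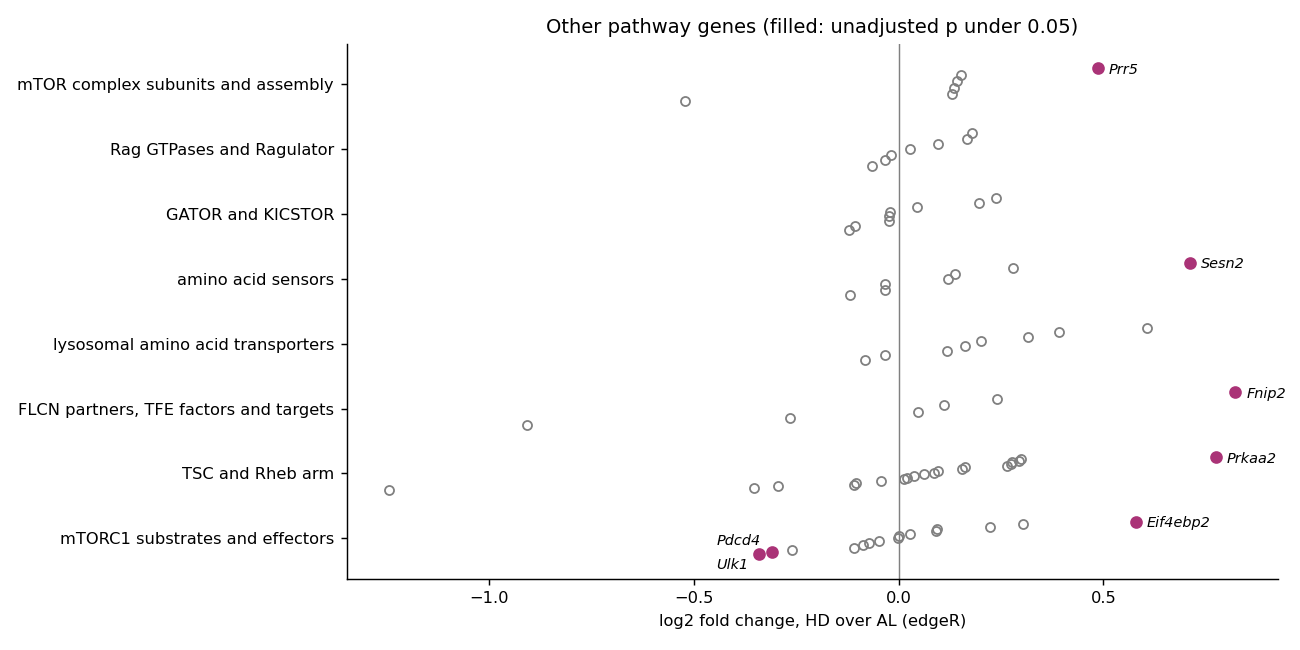
Each point is a gene, placed by its log2 fold change of HD over AL (edgeR) within 1 of the 8 role lists. Filled and named points are the 7 genes with an unadjusted P value below 0.05, and Fnip2 (0.82) and Prkaa2 (0.77) lie farthest to the right among them.

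Sesn2 encodes Sestrin2, the sensor that binds leucine and, when leucine is scarce, restrains mTORC1 through the GATOR complexes. Its levels were almost identical in the AL group, at 30.7, 30.8 and 30.2 CPM in rats 61, 71 and 88. They were 57.9, 46.8 and 45.7 CPM in HD rats 64, 67 and 69, and every HD rat was far above every AL rat. Its log2 fold change was 0.71 ± 0.12 (SE, 95% interval 0.42 to 1.00). The adjusted P value was 0.327 by edgeR and 0.00352 by DESeq2, and the unadjusted edgeR P value was below 0.05 with each rat left out in turn (at most 0.00402). The summed proximal tubule markers were also apart between the groups and had the same order in the HD rats, being highest in rat 64, then 9819 and 9610 CPM in rats 67 and 69, against 7411 to 8748 CPM in the AL group. Among them Slc34a1 was at 3518, 2649 and 2389 CPM in those rats and 1366 to 2268 CPM in the AL group (edgeR unadjusted P = 0.0190). The other proximal tubule markers did not have that order by themselves. Within the HD group Lrp2 and Slc5a2 were highest in rat 67, and Aqp1 and Cubn in rat 69. Cubn had a log2 fold change of -0.05. The podocyte markers had the opposite order in the HD rats, and the part of either in the Sesn2 level was not tested. For its relatives Sesn1 and Sesn3 the log2 fold changes were -0.03 and -0.12 (adjusted P = 0.982 and 0.908). Gatsl3, an older name of the arginine sensor Castor1, was at 39.0 ± 4.15 CPM in the AL group and 47.3 ± 4.34 CPM in the HD group (SD, n = 3 each; adjusted P = 0.495 from edgeR). Of the 7 sensor genes tested, 1 was called at the unadjusted level.

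Among the subunits of the mTOR complexes, Prr5, which belongs to the second complex (mTORC2), was at 47.3, 47.2 and 44.1 CPM in AL rats 61, 71 and 88 and at 58.9, 60.6 and 74.5 CPM in HD rats 64, 67 and 69. The groups were well apart, with a log2 fold change of 0.49 ± 0.12 (SE; edgeR adjusted P = 0.388 and 0.0863 from DESeq2). The podocyte markers had the same order in the HD group (193, 264 and 417 CPM summed in rats 64, 67 and 69). Of these 6 markers, 4 were higher there at an unadjusted P value below 0.05. In AL rats 61, 71 and 88 their sum was 54.9, 128 and 118 CPM, an order that Prr5 did not have. Endothelial (74.4, 122 and 243 CPM) and smooth muscle and mesangial sums (58.7, 63.6 and 291 CPM) also rose in that order in the HD rats. The leukocyte sum did so too, at 16.5, 18.4 and 28.1 CPM in rats 64, 67 and 69. The library totals of these rats rose in that order as well (12499945, 21086503 and 30466461 counts). The part of the markers or of the totals in the Prr5 level was not tested. The other 5 tested genes of this list had log2 fold changes from -0.52 for Prr5l to 0.15 for Mlst8, the subunit shared by both complexes.

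No gene of the machinery that carries the amino acid signal to the lysosome passed the test. Of 7 tested genes for Rag GTPases and the Ragulator anchor and 8 for GATOR and KICSTOR, which switch the Rag GTPases, 0 had an unadjusted P value below 0.05. The log2 fold changes of these 15 genes ran from -0.12 for Nprl3 to 0.24 for Kptn. Lamtor1, which anchors Ragulator in the lysosomal membrane, was at 140 ± 18.8 CPM in the AL group and 156 ± 0.835 CPM in the HD group (SD, n = 3 each; adjusted P = 0.702 from edgeR). Rragc, which pairs with RagA, was at 97.1 ± 7.63 and 104 ± 2.14 CPM (adjusted P = 0.808), Rragd at 11.7 ± 1.92 and 13.2 ± 1.80 CPM (adjusted P = 0.813) and Sec13 at 82.6 ± 12.4 and 94.7 ± 7.91 CPM (adjusted P = 0.684).

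The 8 tested amino acid transporters of lysosome and plasma membrane also gave 0 genes at that level. Slc3a2, the heavy chain shared by several exchangers, was at 109, 116 and 121 CPM in AL rats 61, 71 and 88 and at 142, 119 and 169 CPM in HD rats 64, 67 and 69. Rat 67 lay within the AL range, and the log2 ratio of HD to AL was 0.32 ± 0.14 (SE; edgeR adjusted P = 0.494). Its light chain Slc7a5, which imports leucine, stood at 33.6 CPM in rat 69 against 7.31 to 16.9 CPM in the other 5 rats (adjusted P = 0.766). Pqlc2, a lysosomal exporter of cationic amino acids, was at 2.44 ± 0.773 and 3.19 ± 0.442 CPM (SD, n = 3 each; adjusted P = 0.742).

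Fnip2, a partner of folliculin, was at 28.0, 31.2 and 21.2 CPM in AL rats 61, 71 and 88 and at 64.6, 29.5 and 48.5 CPM in HD rats 64, 67 and 69. Rat 67 lay inside the AL range, and the log2 ratio of HD to AL was 0.82 ± 0.28 (SE; edgeR adjusted P = 0.406). Prkaa2, a catalytic subunit of the energy sensor AMPK, was at 6.12, 8.37 and 5.56 CPM in the AL rats and at 15.2, 8.54 and 10.8 CPM in the HD rats (log2 fold change 0.77 ± 0.28 (SE), edgeR adjusted P = 0.409). Eif4ebp2, the close relative of Eif4ebp1, was at 18.0, 28.2 and 22.2 CPM in the AL rats and at 41.0, 26.3 and 35.2 CPM in the HD rats (log2 fold change 0.58 ± 0.22 (SE), edgeR adjusted P = 0.426). The groups of Prkaa2 were apart here but overlapped in TPM and with scaling by library size alone. In all 3 genes rat 64 was the highest, rat 69 came next and rat 67 was the lowest of the HD group. The distal tubule markers had the same order, with Slc12a3 at 287, 216 and 51.5 CPM and Calb1 at 413, 291 and 140 CPM in rats 64, 69 and 67. Of the other markers in that list, Aqp2 and Atp6v1b1 had this order too and Scnn1g did not. In the AL group Slc12a3 was at 18.1 to 27.6 CPM and Calb1 at 35.4 to 113 CPM. Rat 71 was the highest AL rat in all 3 genes and in Calb1, but the lowest in Slc12a3. Of the 5 distal and collecting duct markers, 2 were higher in the HD group at an unadjusted P value below 0.05, none was at 0, and their part in the levels of Fnip2, Prkaa2 and Eif4ebp2 was not tested.

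The genes lower in the HD group were both mTORC1 effectors. Pdcd4, a repressor of translation that the pathway marks for breakdown, was at 73.2, 72.0 and 75.2 CPM in AL rats 61, 71 and 88 and at 61.2, 60.4 and 56.2 CPM in HD rats 64, 67 and 69. Ulk1, the kinase that starts autophagy, was at 62.3, 74.0 and 68.4 CPM in the AL rats and at 53.1, 56.7 and 51.9 CPM in the HD rats. In both genes the groups stayed apart, also with scaling by library size alone and in TPM. The log2 fold change was -0.31 ± 0.10 for Pdcd4 and -0.34 ± 0.11 for Ulk1 (SE), and the adjusted P value was 0.406 in each by edgeR and 0.173 and 0.205 by DESeq2. Of the 15 tested effectors 7 were higher and 8 lower, and the S6 kinase gene Rps6kb1 had a log2 fold change of -0.05. In the list of the TSC and Rheb arm, 14 of 20 tested genes were higher and 6 lower, with Prkaa2 the one called at the unadjusted level. Over all tested genes 5928 were higher and 5625 lower. The median log2 fold change of that list was 0.074, and -0.009 with library size alone.

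Since Ddit4 was set apart by rat 88, it was compared with 14 genes that glucocorticoids or stress induce or that mediate these responses. Rat 88 was the highest AL rat in 7 of the 14, beside 25.5% of all tested genes, and the highest of all 6 rats in 4, beside 14.2%. Rat 69 of the HD group, with Ddit4 at 88.0 CPM, was the highest of all 6 in 5 of the 14, beside 16.6%. The 4 genes highest in rat 88 were Fkbp5, Tsc22d3, Per1 and Zbtb16. Other genes of the list peaked elsewhere. Sgk1 was highest in HD rat 64 (423 CPM, with 268 CPM in rat 88) and Klf9 in HD rat 69 (78.1 CPM, with 42.8 CPM in rat 88). Rat 88 was the highest AL rat in both. Zbtb16 was at 12.0 CPM in rat 88 and at most 2.24 CPM in the other 5 rats, and Fkbp5 was at 168 CPM in rat 88 and at 33.8 CPM in rat 71, the rats with the highest and the lowest Ddit4. In the HD group, however, Fkbp5 ranged from 43.2 to 120 CPM while Ddit4 ranged from 88.0 to 89.2 CPM. The stress factors Atf4 and Ddit3 were highest among AL rats in rat 61. The part of whatever these genes share in the Ddit4 level was not tested. Between the diets, 4 of the 14 had an unadjusted P value below 0.05, beside 10.6% of all tested genes, with Klf9, Txnip and Sesn2 higher and Tsc22d3 lower, and edgeR's adjusted P values were at least 0.327.

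**Figure D5:**
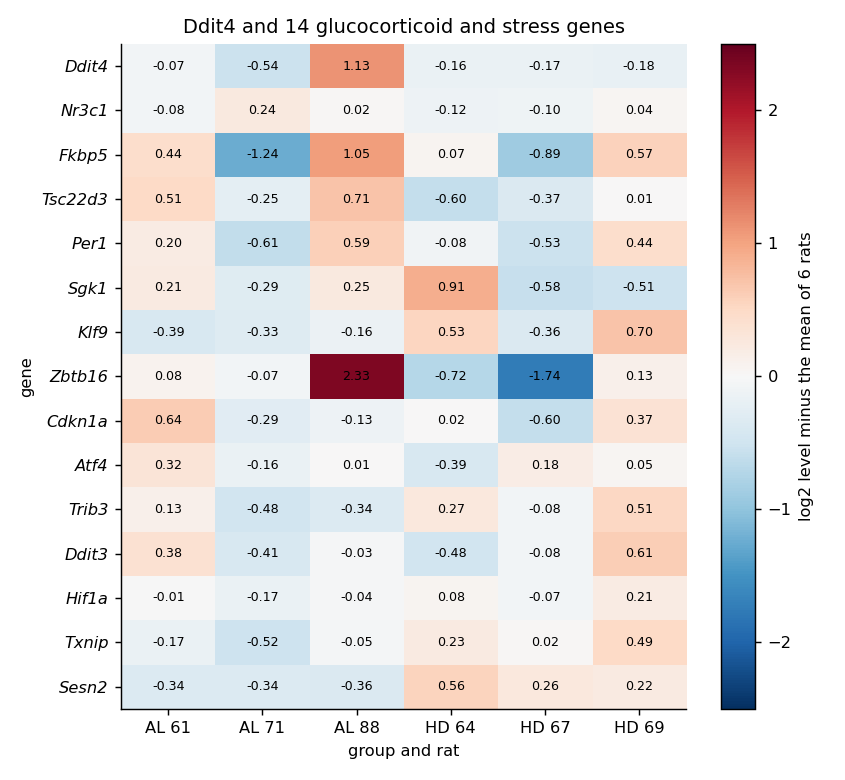
Colors and numbers give the log2 level (CPM plus 0.5) of each gene in each rat minus its mean over the 6 rats, for Ddit4 and 14 glucocorticoid and stress genes. Rat 88 has 1.13 in Ddit4, 1.05 in Fkbp5 and 2.33 in Zbtb16, and the 3 HD rats are nearly equal in Ddit4.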

How the data were processed

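The authors sequenced each kidney library as single-end reads of 100 bases and quantified transcripts with RSEM 1.1.15 (rn5 gene definitions, default parameters), per the study's methods and the submitters' processing notes. The kit does not mark strand, so antisense reads cannot be told apart. Estimated counts were not whole in 8 of the 10 genes, since RSEM divides reads shared between transcripts. Filters on the reads are not given in the sources used here. The deposited estimated count (expected count) is not normalized, and the deposited TPM is scaled by RSEM to transcript length and library. FPKM and posterior columns were not used.

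Counts were summed per gene, rounded, and kept if at least 30 in at least 1 rat. Groups were taken from the diet label. edgeR 4.0.16 (R 4.3.3; TMM, quasi-likelihood test, diet as the only factor) was the test, with Benjamini-Hochberg adjustment over all 11553 genes. The standard error was the log2 fold change over the square root of F. TMM-normalized CPM gave levels within a gene, TPM levels between genes. Totals differed by a ratio of 2.44. For a gene with under 100 counts, such as Slc38a9, counting error alone is wide. DESeq2 1.42.0 (the study's tool), limma 3.58.1, other scalings and filters, and leaving out each rat were alternatives. The fits were tested on simulated counts. Tables and plots used Python 3.11.15, pandas 2.3.3 and matplotlib 3.10.9.

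The members and lists were chosen with earlier results of these data known. Named beside the members are list genes with an unadjusted P value below 0.05, or up to 3 with the smallest P value in lists without one, and a few relatives or marker genes chosen after their values were seen. Promoter windows came from RefSeq (GRCr8), while counts use rn5.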

Additional observations from a re-analysis of the deposited data

How the results depend on the processing

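The 10 genes were examined under 14 alternatives, 140 results in all, and 0 of these reached an adjusted P value of 0.05, the lowest being 0.496. Slc38a9 and Eif4ebp1 kept their direction in all 14. The number of tested genes called, 0 with edgeR, was 182 with DESeq2, 2 without a minimum count, and 0 to 4 with each rat left out. It was 0 in robust edgeR, limma, other scalings and the stricter filter. The number of the 10 genes with an unadjusted P value below 0.05 was 0 to 1 over the fits that left out a rat (Ddit4 without rat 71, Eif4ebp1 without rat 64) and 0 otherwise. The median log2 fold change of the 10, -0.007, was -0.091 with library size alone, which moved the median of all genes to -0.074, -0.071 with limma on TPM, and -0.016 to 0.047 with each rat left out. With library size alone the log2 fold change was -0.015 for Mtor and -0.051 for Tsc2, and with limma on TPM it was -0.028 for Tsc2. With each rat left out it ranged from -0.022 to 0.132 for Rptor, -0.01 to 0.333 for Tsc1, -0.056 to 0.148 for Tsc2, -0.254 to 0.056 for Rheb, -0.164 to 0.066 for Rraga, -0.23 to 0.089 for Flcn and -0.832 to 0.124 for Ddit4. The cause of these shifts was not tested.

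Leaving out any one rat kept the unadjusted P value of Sesn2 and of Prr5 below 0.05. Fnip2 (3 of 6 fits), Prkaa2 (3), Eif4ebp2 (4), Pdcd4 (1) and Ulk1 (2) were not. Scaling by library size alone or limma on TPM also ended calls of Fnip2, Prkaa2 or Eif4ebp2, as given with the pathway genes. Without rat 64, Fnip2 had a log2 fold change of 0.54 in place of 0.82 (unadjusted P = 0.0772). No paired analysis was possible because the labels number the rats individually and give no pairs. Low counts limit Slc38a9 and Eif4ebp1, and for Ddit4 the spread between AL rats allows a fold from 0.371 to 1.30.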
